A study of Mus musculus with 12 samples.

Results

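Major urinary proteins are small secreted carrier proteins encoded by a cluster of closely related genes on mouse chromosome 4. Described here are Mup1, Mup3, Mup6, Mup20 and Mup21. They were found by symbol, or by the symbol that belongs to the Entrez gene number, among the spots of a 1-colour Agilent expression array. The 5 genes had 9 spots among 61657 non-control spots, which carried 26228 gene symbols in all. Mup1 and Mup6 had 1 spot each, Mup20 and Mup21 had 2 each, and Mup3 had 3. The set was selected on earlier results of the same arrays, in which Mup6 was among the genes with a large difference between the lung groups. Their differences between treated and untreated lung are therefore given as descriptions with no test.

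The animals were female B6C3F1/Nctr mice. The study set liver RNA of mice given acrylamide, an electrophilic industrial and dietary chemical, beside that of untreated mice, and likewise for lung. There were 4 groups of 3 arrays: untreated liver (titles numbered 1, 3 and 4), liver after 0.7 mM acrylamide (27, 29 and 30), untreated lung (4, 5 and 6) and lung after 0.7 mM acrylamide (28, 29 and 30). The controls were of the same age as the treated mice. Neither the age of the mice nor how and for how long acrylamide was given is stated in the labels. They do not tell whether each array had its own animal either, so a p-value below measures spread between samples that could be technical.

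Major urinary proteins belong to the lipocalins, barrel-shaped proteins that hold small lipophilic molecules in an inner cavity. Hepatocytes secrete them into blood, from which they pass into urine and release bound volatile pheromones slowly. In liver, pulses of growth hormone acting through STAT5, together with androgens, glucocorticoids and thyroid hormone, raise their transcription, and levels are higher in males than in females. Mup20, also called darcin, is the pheromone protein by which females recognise the scent of a male. Some relatives, Mup4 and Mup5 among them, are known from glands of the head such as lachrymal, nasal and salivary glands.

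In the RefSeq table of assembly GRCm38.p6, 22 genes named Mup and a number lie between positions 59956804 and 62150841 of chromosome 4. Among them lie Mup-ps12 and Mup-ps16, pseudogenes by name that this table lists as protein-coding. The array held 11 of the 22 genes and Mup-ps12. Mup6 (60003481 to 60007274) and Mup1 (60498012 to 60501960) lie towards the first end of the cluster. Mup20 (62011337 to 62054143), Mup3 (62083476 to 62087317) and Mup21 (62147832 to 62150841) lie side by side at the other end. The spots carry no probe sequence in the files used here, so the signal of near-identical family members cannot be kept apart. A value given for 1 member may include signal of another.

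Promoter windows, from 250 bases before to 50 after the annotated start, were listed for 3 of the 5 members (Mup3, Mup6 and Mup21) and for 8 of the 11 Mup genes on the array. The windows of the 3 members are printed because they hold the same elements in the same order. They are RefSeq sequence of build GRCm38.p6, read 5′ to 3′ on the gene's strand: Mup6 at chr4:60003231-60003530 (plus strand), Mup3 at chr4:62087268-62087567 (minus strand) and Mup21 at chr4:62150792-62151091 (minus strand). Capitals mark ATCAAT, a core sequence of the Onecut (HNF6) liver factors, and TATATAA, the letters of a promoter's TATA box.

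Mup6: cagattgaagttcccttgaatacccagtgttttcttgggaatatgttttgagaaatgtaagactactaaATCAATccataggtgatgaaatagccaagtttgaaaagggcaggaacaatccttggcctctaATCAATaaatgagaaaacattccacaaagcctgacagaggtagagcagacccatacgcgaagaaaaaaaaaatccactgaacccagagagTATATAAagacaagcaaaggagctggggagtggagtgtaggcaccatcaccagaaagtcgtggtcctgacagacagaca

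Mup3: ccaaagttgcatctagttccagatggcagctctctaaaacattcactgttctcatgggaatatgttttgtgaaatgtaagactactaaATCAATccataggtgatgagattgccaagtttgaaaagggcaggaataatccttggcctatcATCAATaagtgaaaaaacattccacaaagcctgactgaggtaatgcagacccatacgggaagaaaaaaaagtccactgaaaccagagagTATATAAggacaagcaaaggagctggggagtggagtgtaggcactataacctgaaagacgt

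Mup21: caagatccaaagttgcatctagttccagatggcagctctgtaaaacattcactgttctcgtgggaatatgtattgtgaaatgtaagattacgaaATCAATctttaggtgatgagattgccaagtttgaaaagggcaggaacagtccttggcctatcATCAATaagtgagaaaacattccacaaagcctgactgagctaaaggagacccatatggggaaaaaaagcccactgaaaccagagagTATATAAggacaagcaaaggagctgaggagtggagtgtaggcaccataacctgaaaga

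Each of the 3 windows held ATCAAT at 2 places, 62 bases apart from start to start, followed by TATATAA. The distance from the second ATCAAT to the TATATAA was 90 bases in Mup6, 89 in Mup3 and 86 in Mup21. Relative to the annotated start, TATATAA began at -29 in Mup6, -11 in Mup3 and -8 in Mup21. The 3 windows are therefore not placed alike around these elements. Mup3 and Mup21 were 93.9% identical over the aligned windows, Mup6 and Mup3 89.0%, and Mup6 and Mup21 85.5%. Over all pairs of the 8 Mup windows identity ran from 85.1% to 99.3%. Searched on both strands, TATATAA was in 8 of the 8 Mup windows and in 3.24% of all 32851 windows, and ATCAAT was in 8 of 8 and in 7.54% of all. The marked motifs did not overlap each other.

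At least 2 ATCAAT together with a TATATAA occurred in 20 of the 32851 windows (0.0609%), and 13 of these 20 belonged to Mup genes. TTCNNNGAA, the letters of a STAT5 site, was in 0 of the 8 Mup windows and in 8.3% of all. TGTTCT, part of a glucocorticoid receptor site, was in those of Mup3 and Mup21 and in 19.0% of all. A match is a run of letters and not a measured binding site, and a missing match says only that those letters are not in that window. The Mup windows share descent, so their matches are not separate observations.

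Before the results, the arrays themselves. Lung is named in the title and source of 6 arrays, but the tissue field and the design text call all 12 liver. On the 6 arrays titled lung, 10 of 10 alveolar type 2 markers were higher in untreated samples than in untreated liver (median log2 difference 7.65) and 14 of 14 hepatocyte markers were lower (median -9.70). All of these passed an adjusted p of 0.05 with limma, a linear model fitted across all genes. Groups are therefore named by title. The leading number of the titles is 19 for all liver and 18 for all lung arrays, so whatever it marks cannot be told apart from tissue. Liver acrylamide 30 stood apart. Its 75th percentile of intensity was 294.5, against 423.9 to 621.5 on the other liver arrays. Its background limit, the 95th percentile of 308 negative control spots, was 16.8 against 2.5 to 4.45. It had 34287 spots above that limit, against 46450 to 48330.

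In untreated mice 8 of the 9 member spots were far brighter in liver than in lung, the exception being a Mup3 spot described below. Levels are given as log2 of the deposited intensity over the array's 75th percentile, so that 0 is the level of that percentile. All 9 member spots were above the background limit on all 12 arrays. In untreated liver the Mup1 spot read 9.44 ± 0.11 (SD, n = 3), and in untreated lung it read -0.47 ± 0.12 (n = 3). The difference was -9.91 ± 0.14 (standard error; limma adjusted p = 2.49e-07). In liver this spot and the first Mup21 spot stood at 69.3% to 88.9% of the array's brightest spot, where intensities varied little between arrays. Whether this affects the size of their tissue difference was not tested.

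Mup6 had the lowest lung-minus-liver value of all 22441 genes tested, at -12.36 ± 0.26 (limma adjusted p = 4.24e-07). The untreated lung arrays used here also entered the lung contrast by which the set was taken up. The rank and p-value of Mup6 are therefore not independent of that choice. The Mup6 level was 5.76 ± 0.42 (SD, n = 3) in untreated liver and -6.61 ± 0.29 (n = 3) in untreated lung. The pheromone gene Mup20 differed by -10.59 ± 0.15 (limma adjusted p = 2.49e-07), Mup21 by -10.12 ± 0.14 (2.49e-07) and Mup3 by -9.74 ± 0.34 (1.75e-06). No liver array of any member overlapped a lung array. Of the 22441 genes, 16700 passed the same test (74.4%), 42.4% being lower in lung, so a call in this comparison is common. By size, 0 genes lay below Mup6, 98 below Mup20, 140 below Mup21, 155 below Mup1 and 173 below Mup3.

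The hepatocyte markers gave the scale of this gap. Fga, a fibrinogen chain, was lower in untreated lung by -11.50 ± 0.37 and Cps1, the first enzyme of the urea cycle, by -11.53 ± 0.28. Alb, serum albumin, was lower by -5.02 ± 0.32. The spot that stood for a gene was chosen anew in each fit. For Alb, the spot of the liver treatment fit read 9.67, 9.80 and 9.90 on liver control 1, 3 and 4. That of the lung treatment fit read 3.11, 3.10 and 4.21 on lung control 4, 5 and 6. These Alb values therefore do not all come from the same spot, and its difference depends on the spot. The members thus differed between tissues about as much as liver-secreted proteins did, and Mup6 lay beyond all 14 markers. The Mup6 spot was dim in untreated lung, at 2.77 to 4.95 times the background limit. Whether this affects the size of its tissue difference was not tested. The median over all genes was -0.28 here and 0.01 after quantile scaling, under which Mup1 differed by -9.33, Mup3 by -9.28, Mup6 by -11.78, Mup20 by -10.07 and Mup21 by -9.52. In such bulk RNA, fewer cells of a type and less RNA per cell cannot be told apart.

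**Figure D1:**
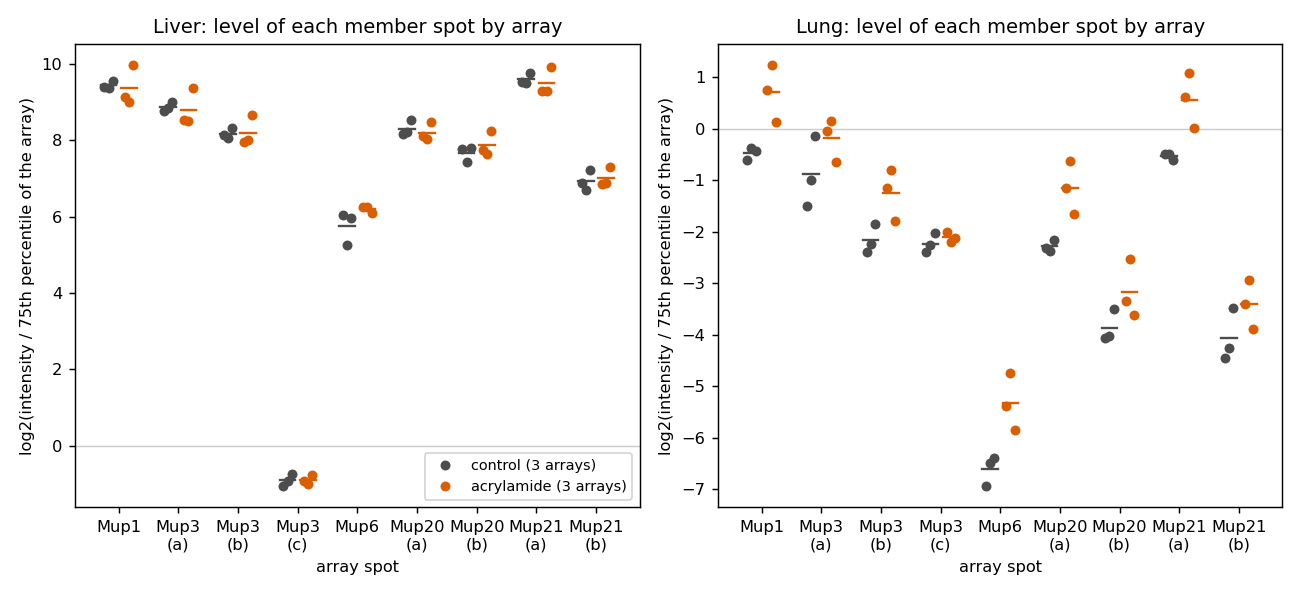
Level of each of the 9 member spots on each array (points) and the mean of each group of 3 arrays (bars), as log2 of intensity over the array's 75th percentile, for liver (left) and lung (right), with control in grey and acrylamide in orange. In liver 8 spots lie near or above 5 and the groups mostly overlap, while Mup3 (c) lies near -1. In lung the acrylamide points of Mup1, Mup6, Mup20 (a), Mup21 (a) and Mup3 (b) all lie above the control points.

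The spots of a gene did not always tell the same story. The 3 Mup3 spots are called (a), (b) and (c) here, and (a) is the one with the highest mean, used for the gene. In untreated tissue the lung-minus-liver difference of Mup3 (a) was -9.74 ± 0.34 and that of Mup3 (b) was -10.33 ± 0.19. Mup3 (c) differed by -1.32 ± 0.17 (limma adjusted p = 0.000569 over 50847 spots). Mup3 (c) is attached to another transcript record than (a) and (b), and its intensity ran from 174.1 to 325.8 in liver and from 208 to 316.2 in lung. Its values therefore did not follow those of the other Mup3 spots.

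For Mup20 the second spot differed by -11.54 ± 0.21 beside -10.59 for the first, and for Mup21 the second differed by -10.98 ± 0.29 beside -10.12. Counted by spot, 9 of 9 were lower in untreated lung with no overlap between groups, as were 45.8% of all 50847 spots, and 9 of 9 passed the adjusted test, as did 41.9% of all spots.

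In lung all 5 members had a positive difference after acrylamide. With 1 spot a gene, the treated arrays lay above the controls in 4 of them, Mup3 being the exception. The same held for 4.08% of all 22252 genes. The members were taken up with lung results known, so nothing is read from that contrast. The Mup1 spot read 0.76 on lung acrylamide 28, 1.24 on 29 and 0.13 on 30, against -0.61 on lung control 4, -0.38 on 5 and -0.42 on 6. All 3 treated arrays lay above all 3 controls, with acrylamide 29 the highest and acrylamide 30 the nearest to the controls. The difference was 1.18 ± 0.28 log2 units (standard error of the fit), or 2.26-fold.

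Mup6 read -5.39, -4.75 and -5.85 on lung acrylamide 28, 29 and 30, against -6.94, -6.49 and -6.40 on lung control 4, 5 and 6. The order of the arrays was that of Mup1 among treated arrays, and the groups did not overlap. The difference of 1.28 ± 0.31, or 2.43-fold, is part of why the family was taken up. The spot was dim, with deposited intensities of 8.97 to 14.4 on control and 19.97 to 42.01 on acrylamide arrays, which was 2.77 to 15.6 times the background limit over the 6 arrays.

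Mup20, the darcin gene, read -1.14, -0.62 and -1.66 on lung acrylamide 28, 29 and 30, against -2.31, -2.37 and -2.16 on lung control 4, 5 and 6. The control arrays lay close together and every treated array was above them. The difference was 1.14 ± 0.27. Its second spot gave 0.70 ± 0.32 with groups that overlapped, since lung control 6 (-3.50) was above lung acrylamide 30 (-3.61).

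Mup21 read 0.61, 1.08 and 0.01 on lung acrylamide 28, 29 and 30, against -0.49, -0.48 and -0.61 on lung control 4, 5 and 6. Again acrylamide 29 was highest, and the groups did not overlap. The difference was 1.09 ± 0.27, and the second spot gave 0.65 ± 0.34 with overlap.

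Mup3 (a) was the exception among the 5. It read -0.05, 0.16 and -0.65 on lung acrylamide 28, 29 and 30, against -1.49, -1.0 and -0.14 on lung control 4, 5 and 6. Lung control 6 lay above acrylamide 30, so the groups overlapped, and the difference was 0.70 ± 0.39. It was 0.39 without lung control 4 and 1.07 without lung control 6. Mup3 (b) differed by 0.92 ± 0.29 without overlap and Mup3 (c) by 0.12 ± 0.14.

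Over the 9 member spots, 9 had a positive lung difference, from 0.12 to 1.28 with a median of 0.92. In 5 of the 9 every acrylamide array lay above every control, as in 4.51% of all 50409 spots. Since these values bear on how the genes were chosen and the spots may share target RNA, nothing is read from that contrast. Among 22252 genes, 75 had a higher lung difference than Mup6, 108 than Mup1, 115 than Mup20, 134 than Mup21 and 419 than Mup3. Over all genes limma called 0 at an adjusted p under 0.05, and 1102 (4.95%) had an unadjusted p under 0.05. The count of 5 spots was 8 without lung acrylamide 30, where the share of all spots was 7.66%, and 9 without lung control 6, where it was 10.4%.

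The digit after the leading number of the titles, 1 or 2, has no stated meaning and splits the lung arrays into acrylamide 28, acrylamide 30 and control 5 against acrylamide 29, control 4 and control 6. Within digit 1 the lung difference was 0.82 for Mup1, 0.87 for Mup6, 0.97 for Mup20, 0.79 for Mup21 and 0.65 for Mup3. Within digit 2 these were 1.75, 1.92, 1.62, 1.63 and 0.97. Each kept its sign, and each was larger in the set that holds acrylamide 29.

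Markers of hepatocytes also differed between lung arrays. All 14 measured markers had a positive lung difference, with a median of 0.33 against -0.01 over all genes. Ahsg, a fetuin secreted by liver, had 0.61 ± 0.46 and Alb 0.32 ± 0.44, and 0 of the 14 passed an unadjusted p of 0.05 with limma. Their summed intensity ran from 29140 to 46600 on acrylamide and from 20780 to 48690 on control arrays, and all 14 were above the background limit on at least 3 of the 6 arrays. The summed intensity of the 5 members ran from 3912 to 7084 on acrylamide and from 2122 to 3093 on control arrays. Both sums are of deposited intensity without scaling. The members' lung difference was known beforehand, so nothing is read from their sums.

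Array by array, the marker list and the Mup members ran together on some lung arrays and apart on others. Among treated arrays, acrylamide 30 had the lowest median of both. Relative to the mean of the controls, the hepatocyte median came to 0.70 (acrylamide 28), 0.65 (29) and -0.35 (30) on treated lung arrays. On lung control 4, 5 and 6 it came to -0.15, -0.44 and 0.69. For the members the same medians were 1.14, 1.66 and 0.60, and -0.14, 0.05 and 0.12. On lung acrylamide 30 the markers were below the control mean while the members were above it, and on lung control 6 the marker median was close to that on acrylamide 28 while the member median was not. With 1 spot a gene Mup3 was the exception, at 0.74 over the control mean on lung control 6 and 0.83 on acrylamide 28. The second spots of Mup20 and Mup21 were also raised on lung control 6, at -3.50 and -3.47. They read -3.35 and -3.40 on acrylamide 28, against -4.06 and -4.44 on lung control 4 and -4.02 and -4.25 on 5.

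After the hepatocyte median of each array was subtracted, the lung difference was 0.81 for Mup1, 0.91 for Mup6, 0.77 for Mup20, 0.72 for Mup21 and 0.33 for Mup3. The groups then overlapped for all 5. The subtraction also changed the spread within groups. The SD of the control arrays rose from 0.12 to 0.60 for Mup1 and from 0.07 to 0.66 for Mup21, but fell from 0.69 to 0.45 for Mup3. On the acrylamide arrays it fell from 0.56 to 0.31 for Mup1. The share of all genes that overlap after this step was not computed, so nothing is read from the overlap. Markers of striated muscle were positive in 6 of 6 (median 0.54) and of macrophages in 6 of 7 (median 0.26), while alveolar type 2 markers were positive in 0 of 10 (median -0.09), club and airway gland markers in 5 of 10 (median -0.03) and adipose markers in 4 of 7 (median 0.17). Lung control 6 stood apart in several of these lists. Over the control mean, its median was -3.85 for club and airway gland, -2.08 for adipose and -1.74 for striated muscle markers, against 2.76, 0.59 and 1.53 on lung control 4. Without lung control 6 the members' lung difference was 1.2 for Mup1, 1.38 for Mup6, 1.2 for Mup20, 1.05 for Mup21 and 1.07 for Mup3. The part of other cell types in the members' lung difference was not tested beyond these values.

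**Figure D2:**
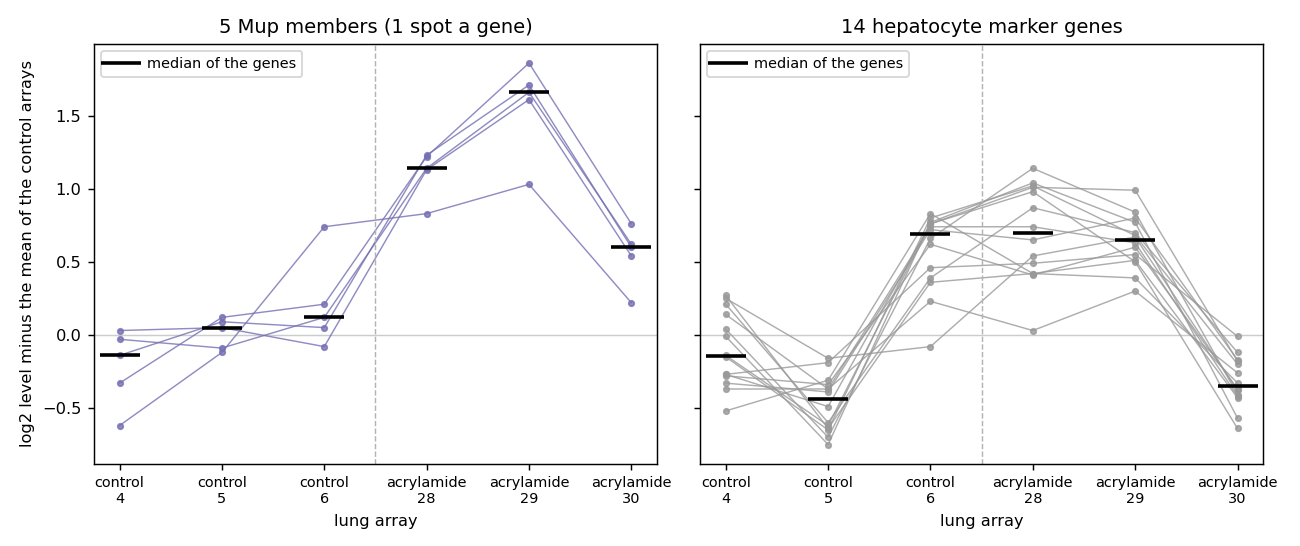
Log2 level minus the mean of the 3 control arrays on each lung array, for the 5 Mup members with 1 spot a gene (left) and 14 hepatocyte markers (right). Lines join a gene's values and black bars mark the median. The member medians are 1.14, 1.66 and 0.60 on the acrylamide arrays, whereas the hepatocyte medians are 0.70 and 0.65 on 2 of them, -0.35 on acrylamide 30 and 0.69 on control 6.

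The other family members on the array are Mup2, Mup4, Mup5, Mup17, Mup18, Mup19 and the pseudogene Mup-ps12. In lung 7 of 7 had a positive difference, from 0.52 to 1.04, and 5 of 7 had groups that did not overlap, beside the 4.51% of all spots. Mup4, known from nasal and lachrymal glands, differed by 1.04 ± 0.24 and Mup17 by 1.01 ± 0.24. Mup5, known from salivary glands, had the smallest, 0.52 ± 0.35. On these arrays Mup4 and Mup5 were also lower in untreated lung than in untreated liver, by -9.07 ± 0.12 and -11.03 ± 0.35. Over the 7 this difference ran from -11.6 to -7.73. These genes resemble the 5 members in sequence and may share signal with them, so they are no separate evidence.

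In liver, acrylamide gave no call for any member, and the 5 genes did not differ in 1 direction. Mup1 read 9.13 on liver acrylamide 27, 9.0 on 29 and 9.97 on 30, against 9.39 on liver control 1, 9.36 on 3 and 9.56 on 4. The highest value and the lowest were both in treated liver, on acrylamide 30 and acrylamide 29. The difference was -0.07 ± 0.28 (95% interval -0.75 to 0.61; limma adjusted p = 0.965).

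Mup20 read 8.10, 8.03 and 8.47 on liver acrylamide 27, 29 and 30, against 8.17, 8.21 and 8.53 on liver control 1, 3 and 4, a difference of -0.11 ± 0.19 (-0.56 to 0.34; limma adjusted p = 0.91). Mup21 differed by -0.09 ± 0.22 (-0.63 to 0.45; adjusted p = 0.938) and Mup3 by -0.07 ± 0.26 (-0.71 to 0.57; adjusted p = 0.964). The groups overlapped for all 3 genes, and Mup3 and Mup21, like Mup1, were highest on liver acrylamide 30. These intervals leave room for changes of either sign. The second spots differed by 0.20 ± 0.22 for Mup20 and 0.08 ± 0.21 for Mup21. Mup3 (b) differed by 0.03 ± 0.23 and Mup3 (c) by 0.02 ± 0.16.

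Mup6 was the member that stood nearest to a difference in liver. It read 6.25, 6.25 and 6.09 on liver acrylamide 27, 29 and 30, against 6.03, 5.27 and 5.97 on liver control 1, 3 and 4. The 3 treated arrays lay above the controls, though acrylamide 30 only just passed control 1, and control 3 was apart from the other controls. The difference was 0.44 ± 0.23 (-0.13 to 1.01; limma adjusted p = 0.784), which did not pass, and it was 0.20 without liver control 3. It was the only 1 of the 9 member spots with groups that did not overlap, against 6.29% of 47024 spots that were higher in that way.

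Outside the 5 members, Mup5 differed in liver by 0.70 ± 0.23 (limma adjusted p = 0.784). Mup2, Mup4, Mup17, Mup18 and Mup19 differed by -0.18 to -0.10, and Mup-ps12 by 0.07 ± 0.20. Across all 21169 genes tested in liver limma called 0 (0%), and 1278 (6.04%) had an unadjusted p under 0.05. A single fit of all 12 arrays called 2.

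Without liver acrylamide 30, the array that stood apart, the liver differences were -0.37 for Mup1, -0.35 for Mup3, -0.24 for Mup20 and -0.31 for Mup21, with limma adjusted p from 0.286 to 0.516. That of Mup6 was 0.50 (adjusted p = 0.426). Within title digit 1 (acrylamide 27 and 30, control 1 and 3) the values were 0.18, 0.15, 0.09 and 0.10 for the first 4 and 0.53 for Mup6. Within digit 2 (acrylamide 29, control 4) they were -0.56, -0.49, -0.50 and -0.49, and 0.28 for Mup6. The sign in liver thus changed with the arrays compared for each member other than Mup6.

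**Figure D3:**
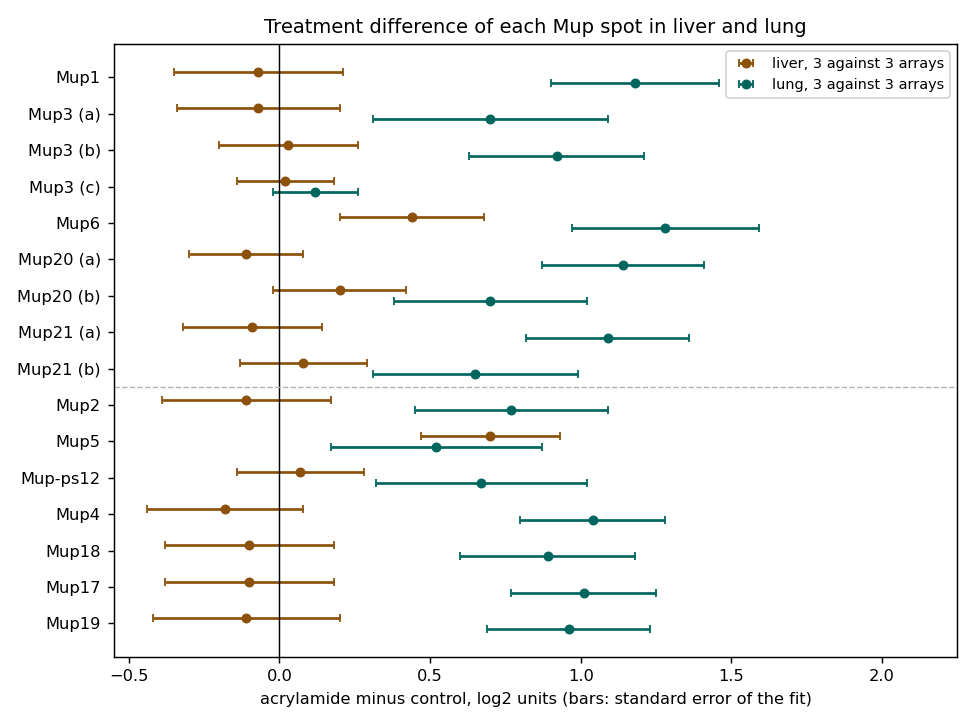
Acrylamide minus control in log2 units for each Mup spot in liver (brown) and lung (green), with bars of 1 standard error of the fit of 3 against 3 arrays. Member spots stand above the dashed line and the other family genes below it. Liver values lie between -0.18 and 0.70 and lung values between 0.12 and 1.28.

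The brightest Mup spots in liver varied little in deposited intensity. Mup1 had deposited intensities of 347573, 318219 and 296121 on liver acrylamide 27, 29 and 30, and of 322658, 293343 and 321100 on liver control 1, 3 and 4. The highest was 1.18 times the lowest, while the 75th percentile of the same 6 arrays spanned 2.11 times. The spot stood at 69.3% to 78.0% of the brightest spot of its array and at positions 10 to 17 of all spots. Mup21 (a) spanned 1.35 times, at 69.8% to 88.9% of the maximum.

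Mup19, a relative at 75.2% to 77.6% of the maximum, spanned 1.07 times. Dimmer family spots spanned more: 1.64 times for Mup20 (a), 2.76 times for Mup6 at 4.06% to 10.9% of the maximum, and 3.24 times for Mup5. Over all spots the median span in liver was 1.42 times for the brightest 100, 1.90 times for the next 900 and 2.09 times for the 4000 after those. For Mup1, dividing by the 75th percentile therefore gave the highest level on the array with the lowest percentile, liver acrylamide 30. What narrowed the range of bright spots was not tested.

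**Figure D4:**
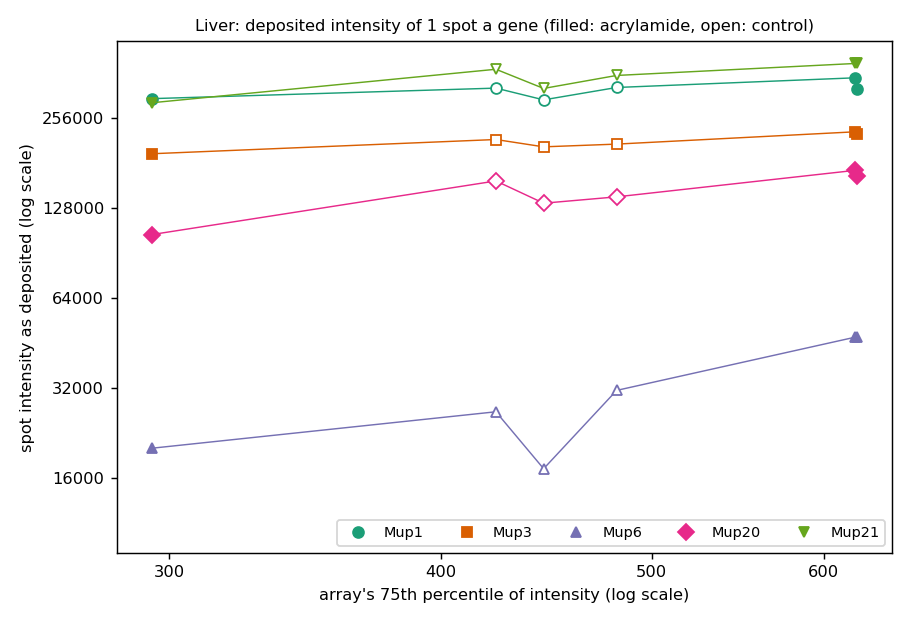
Deposited intensity of 1 spot for each member against the 75th percentile of intensity of the same liver array, both on log scales, with filled symbols for acrylamide and open symbols for control. Mup1 stays between 293343 and 347573 while the percentile runs from 294.5 to 621.5. Mup6 runs from 17184 to 47438.

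The treatment difference in lung was set against that in liver with an interaction contrast over all 12 arrays. It contains the lung difference that was known beforehand. The lung difference exceeded the liver difference by 1.25 ± 0.42 for Mup1, 1.25 ± 0.34 for Mup20, 1.19 ± 0.37 for Mup21 and 0.76 ± 0.51 for Mup3. For Mup6 the value was 0.83 ± 0.41. These are descriptions with no test. Over all 23300 genes limma called 0 (0%) in this contrast, with 1035 (4.44%) at an unadjusted p under 0.05. The count of genes was 136 without liver acrylamide 30 and 139 with arrays weighted by quality.

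Regulators of Mup transcription were then read in the same fits. The list held 17 genes of growth hormone signalling and liver factors, all measured. In untreated tissue 11 of 17 were lower and 3 higher in lung at an adjusted p under 0.05, beside 42.4% of all genes lower and 32% higher. Hnf4a, a transcription factor of hepatocytes, differed by -10.94 ± 0.28, and Onecut1, which encodes the factor HNF6, by -9.0 ± 1.02. Ghr, the growth hormone receptor, differed by -3.21 ± 0.20 and Stat5b by -1.26 ± 0.16.

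After acrylamide 0 of the 17 passed in liver, where 9 were positive and 8 negative (median 0.03 against -0.02 over all genes). The largest were Cish, a STAT5-induced inhibitor of cytokine signalling, at 1.69 ± 0.43, Bcl6, a repressor at STAT5 sites, at -1.32 ± 0.71, and Cux2, a repressor of male-biased genes, at -1.03 ± 0.38. Each had a limma adjusted p of 0.784. In lung 0 of 17 passed, with 6 positive and 11 negative. Onecut1 differed by -1.71 ± 1.1, Igfals, the carrier subunit of circulating IGF1, by 0.57 ± 0.33, and Cish by 0.30 ± 0.10.

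Cell type markers in liver differed as follows. Macrophage markers were positive after acrylamide in 7 of 7 (median 0.60), with Lyz2, a lysozyme, at 1.13 ± 0.49, and their summed intensity ran from 13460 to 31090 on acrylamide and from 14380 to 18290 on control arrays. Alveolar type 2 markers were positive in 6 of 9 (median 0.34), hepatocyte markers in 3 of 14 (median -0.14) and adipose markers in 2 of 6 (median -0.57). None of these lists had a gene past the adjusted test. Their part in the members' liver values was not tested.

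Genes that, like Mups, are higher in male than in female liver formed a list of 12. In liver 11 of 12 were positive after acrylamide, with a median of 0.43 against -0.02 over all genes, and 0 passed the adjusted test. Cyp4a12a, a fatty acid hydroxylase, differed by 0.95 ± 0.45, the elongase Elovl3 by 0.70 ± 0.35 and Cyp2d9 by 0.50 ± 0.22, each with a limma adjusted p of 0.784. Of the 5 members, 1 was positive in liver with 1 spot a gene, Mup6. Counted by spot, 5 of the 9 member spots were positive. In lung 7 of 11 measured genes of the list were positive (median 0.13), with Slco1a1, an organic anion transporter, at 1.09 ± 0.78, and 0 passed. In liver, female-biased genes split 11 to 10, with the sulfotransferases Sult2a1 at -1.90 ± 0.66 and Sult2a2 at -1.45 ± 0.55, and Prom1 at 1.61 ± 0.70, none of which passed.

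The wider lipocalin family was set beside the members. In untreated tissue 17 of 19 measured lipocalins were lower in lung (42.4% of all genes) and 2 were higher (32%), Lcn2 (2.04 ± 0.45) and Apod (2.17 ± 0.24), all at an adjusted p under 0.05. Apom, a carrier of lipids on lipoproteins, differed by -10.01 ± 0.36 and Orm1, an acute-phase glycoprotein, by -9.84 ± 0.25. After acrylamide 11 of 18 were positive in lung with a median of 0.05, and 10 of 19 in liver with a median of 0.01, and 0 passed in either tissue. The largest in lung were Lcn5 at -0.72 ± 0.26 and Ambp, a precursor of a circulating lipocalin, at 0.50 ± 0.45.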

How the data were processed

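RNA of 12 samples was hybridised to 1-colour (Cy3) Agilent arrays. The authors deposited 1 table per array with 62976 spots on a linear intensity scale, and a value table equal to that intensity times 1 factor per array (75th percentile 1000). Per the submitters' processing notes, Agilent Feature Extraction 10.7 read the scans. Whether that step subtracted background or marked saturated spots is not stated there. Here 1319 control spots were left out and log2 intensity minus the array's 75th percentile was used. Of 61657 spots, 38054 were named by Entrez number and 715 by accession through the RefSeq table of GRCm38.p6. Where neither was found there, 2242 kept the file's own name and 20646 stayed unnamed. A spot entered a fit when above the 95th percentile of 308 negative control spots on at least 3 arrays. In each fit, the spot with the highest mean over the arrays of that fit stood for a gene. Groups were compared with limma 3.58.1 (lmFit, eBayes, Benjamini-Hochberg over all genes) in R 4.3.3, after a run on simulated data. With 3 against 3 arrays the smallest exact permutation p would be 0.1, and the number of arrays limits the precision. Promoter windows were aligned with Biopython 1.88.

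Named were all member spots, the other Mup genes, 2 to 4 genes of each list with the largest absolute difference, genes with the most similar profile and the cluster's neighbours. Markers named beside them (such as Alb) and Ghr and Stat5b were added after their values were seen. The members and lists were chosen with earlier results of these data known. Some genes of the lists are not reported here. Alternatives covered scaling, background filter, spot rule, array weights, blocks and each array left out.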

Additional observations from a re-analysis of the deposited data

How the results depend on the processing

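The untreated lung-minus-liver difference of the 5 members kept its sign and its call in each of 19 alternatives. Their lung treatment difference, known beforehand, was positive in each of 20. It ran from 0.81 to 1.75 for Mup1, 0.87 to 1.92 for Mup6 and 0.77 to 1.62 for Mup20. For Mup21 it ran from 0.72 to 1.63 and for Mup3 from 0.33 to 1.07. Some alternatives, such as the intensity trend or 1 fit of all 12 arrays, leave this estimate as it is. The count of kept signs is therefore no test. In liver, signs of values near 0 turned. Quantile scaling gave 0.01 for Mup1, 0.06 for Mup3 and 0 for Mup20, and the mean of its spots gave 0.05 for Mup20. Leaving out single liver arrays gave -0.37 to 0.11 for Mup1, -0.35 to 0.08 for Mup3, -0.24 to 0.01 for Mup20, -0.31 to 0.01 for Mup21 and 0.20 (without liver control 3) to 0.58 for Mup6. Within title digit 1 the values were 0.18 (Mup1), 0.15 (Mup3), 0.09 (Mup20) and 0.1 (Mup21). The causes were not tested. Liver calls were 2 in 1 fit of all 12 arrays and 0 to 1 with arrays left out (1 without liver acrylamide 27). Tissue calls were 34703 over every spot, since more features were tested, and 14757 to 15715 with arrays left out. Interaction calls were 139 with array weights and 0 to 136 with arrays left out (136 without liver acrylamide 30, 8 without liver acrylamide 27, 1 without liver control 1 or lung acrylamide 30). Member spots with no overlap in lung were 5 to 9 with arrays left out.

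The title numbers 4, 29 and 30 occur in both tissues. Deviations of same-numbered arrays from their group means correlated at 0.012, -0.021 and -0.156 over 23300 genes, so the numbers were not taken as pairs. With title number as a replicate block the tissue comparison called 16875 genes, with Mup6 at -12.33, and the interaction called 0, with Mup1 at 1.25, and no member's call between tissues changed. Mup6 in lung was at 2.77 to 15.6 times the background limit. Values at the bright end in liver have the narrow range described above.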

Other observations

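Genes outside the family whose profile over the 6 lung arrays was most like the mean profile of the members were Rem1 (Pearson r 0.986), Sipa1 (0.98), Chpf2 (0.976), Cfp (0.976) and Nol11 (0.976), among 20645 genes, of which 70 had r over 0.9. Their own treatment differences in lung were 0.41, 0.07, 0.36, 0.20 and 0.11 log2 units. Over the 6 liver arrays the most similar were Zfp316 (0.998), Rab17 (0.995), Pard6a (0.993), Il12rb2 (0.992) and Homer3 (0.99), among 16098 genes, of which 375 had r over 0.9. The points of each profile share arrays and scaling, and 6 arrays give many high values, so these are descriptions.

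The 3 nearest named genes before the cluster are Slc46a2, Snx30 and Inip, and the 3 after it are Zfp37, Slc31a2 and Fkbp15. In untreated tissue 4 of the 6 were higher in lung at a limma adjusted p under 0.05 and 0 were lower, beside 32% of all genes higher and 42.4% lower. Zfp37, a zinc finger gene, was higher by 2.62 ± 0.40 (limma adjusted p = 0.00109) and Inip, part of a DNA damage response complex, by 1.28 ± 0.13 (0.000167). After acrylamide 0 of the neighbours passed in either tissue.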
